A study of Daphnia magna with 27 samples.

Results

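Unexposed Daphnia magna of the third culture generation (CtrlF2) were compared with those of the first (CtrlF0), both sampled at 20 days of age. The comparison covers all reporters, spotted cDNA fragments, that carry a test in the authors' deposited table of CtrlF2 against CtrlF0. These are 2234 of the 2261 reporters listed, and they were taken whether or not they changed. The other 27 had no value on any CtrlF0 array.

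The study followed the water flea clone K6 through 3 generations, in control medium or with zinc at 388 µg/L in part of its lineages. Neither group here received added zinc: both were kept in modified M4 medium, and CtrlF2 descended from the same laboratory culture as CtrlF0. Each group has 3 samples, and each sample is whole-body RNA of 10 pooled adults. Every sample was hybridised on a 2-colour array against a common reference pool of 60 daphnids each of 6, 13 and 21 days. All CtrlF0 samples carried the dye Cy5. In CtrlF2, replicates 1 and 2 carried Cy3 and replicate 3 carried Cy5. The sources do not say if samples within a group were cultured apart, and p-values may then measure technical spread.

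Daphnia in culture are females that reproduce without males, so that mother and daughter share a genotype and generations differ by their history rather than by crossing. An adult releases a brood at about each moult, and its body holds ovary, developing eggs, gut, muscle, carapace and fat cells. Vitellogenin, the yolk protein precursor, is made in the fat cells and taken up by growing oocytes. In RNA of whole animals, fewer cells of a type and less RNA per cell cannot be told apart.

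The arrays of both groups do not stand on an equal footing, which touches every result below. The values of CtrlF0 replicates 1 and 3 were the same in 2066 of 2066 reporters within 0.001, so they were counted as 1 sample, leaving 2 distinct CtrlF0 arrays. The median log2 ratio of sample over reference pool was -0.03 and 0.01 on these arrays. On CtrlF2 replicates 1, 2 and 3 it was -0.34, -0.31 and 0.35, so the Cy3 arrays lay below 0 and the Cy5 array above. Log ratios past 6 in either direction occurred for 20, 2 and 4 reporters on these CtrlF2 arrays and for 0 on the CtrlF0 arrays. Levels per array are therefore given as centred log2 ratios, with the median of each array subtracted. On this scale the median gap between the distinct CtrlF0 arrays was 0.22, gaps between CtrlF2 arrays were 0.26 to 0.30, and gaps across the groups were 0.28 to 0.36.

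**Figure D1:**
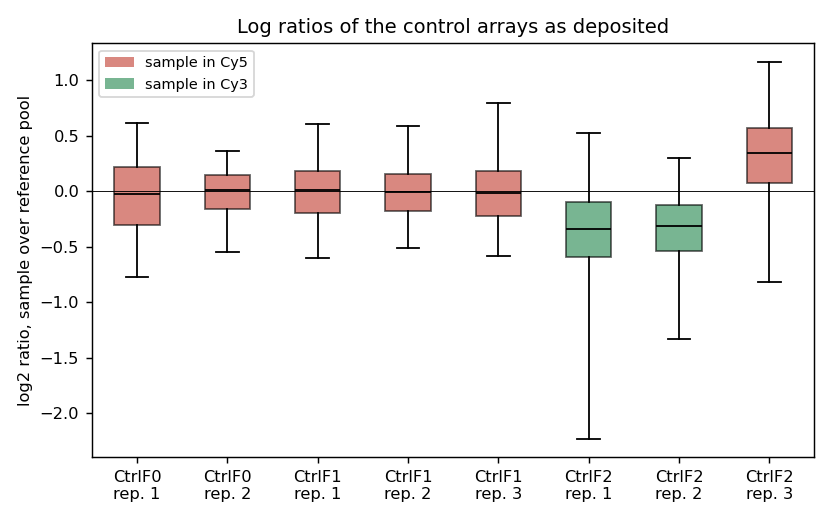
Log2 ratios of sample over reference pool on the distinct arrays of the 3 control generations, as deposited. Boxes span the lower to the upper quartile of the reporters with the median as a line, whiskers reach the lowest and highest 5 percent, and colours give the dye of the sample. The CtrlF2 arrays are off 0, below it in Cy3 and above it in Cy5, while the CtrlF0 and CtrlF1 arrays are centred near 0.

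In the authors' deposited table, more reporters were called lower than higher in the later generation, and the lower ones changed further. Of its 2234 reporters, 279, or 12.5 percent, had an adjusted p under 0.05, with 114 (5.1 percent) higher in CtrlF2 and 165 (7.39 percent) lower. A log2 change of at least 1 was reached by 64 of them, 2.86 percent of those tested. The median log2 change was 0.56 among the higher and -0.68 among the lower reporters of the authors' deposited table, against 0.01 over all tested. Falls of at least 2 on the log2 scale were listed for 16 reporters in the authors' deposited table and such a rise for 1. The reporters that fell were also brighter: their median average log2 expression in the authors' deposited table was 8.98, against 7.87 for those that rose and 7.50 over all tested. Over 4 classes of average expression with 25 percent of the reporters each, from dim to bright, the share called in the authors' deposited table was 4.47, 10.2, 15.1 and 20.2 percent. In the brightest class 81 reporters fell and 32 rose, and in the dimmest 10 fell and 15 rose. Whether brighter reporters changed more or were measured with less error was not tested.

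**Figure D2:**
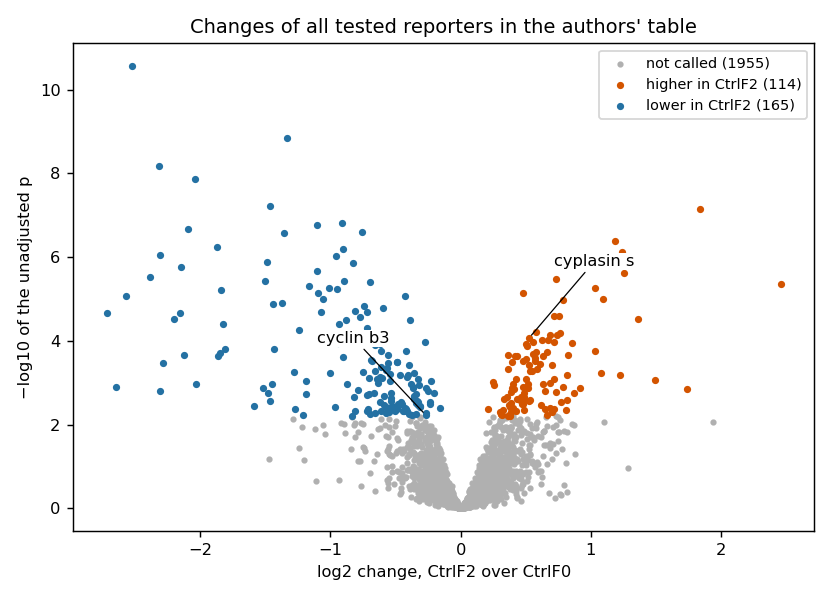
Log2 change of CtrlF2 over CtrlF0 (x axis) against −log10 of the unadjusted p (y axis) for the 2234 tested reporters of the authors' deposited table. Orange points are the 114 reporters called higher and blue points the 165 called lower at an adjusted p under 0.05, with grey for those not called. The largest changes lie on the lower side, and of the named reporters, the labelled cyplasin s and cyclin b3 passed.

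The direction, CtrlF2 over CtrlF0, follows the order of groups in the name of the table. It was set against the per-array values: across 2220 reporters the difference of the group means had Pearson's r = 0.76 with the deposited change. With the sign turned on the Cy3 arrays r was -0.11. These are correlations across genes, which are not independent replicates.

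Most called reporters kept their direction on each CtrlF2 array. Relative to the mean of the CtrlF0 arrays, 105, 112 and 106 of the 114 reporters called higher stood above it on replicates 1, 2 and 3. Of the reporters called lower, 164 of 165, 162 of 163 and 158 of 163 with a value stood below it. The median difference of the higher reporters was 0.54 on each CtrlF2 array, whichever dye the sample carried. For the lower reporters it was -0.89 and -0.73 in Cy3 and -0.68 in Cy5, the dye of the CtrlF0 samples. These arrays also entered the authors' fit, so this describes the calls and is not independent of them.

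With all 5 arrays at hand, 224 of 269 called reporters had CtrlF2 arrays that did not overlap the CtrlF0 arrays in the called direction. This held for 79 of 109 higher and 145 of 160 lower reporters. Over all 1998 reporters with such values, 34.8 percent did not overlap, 14 percent with CtrlF2 above and 20.8 percent with CtrlF2 below. Of the reporters that fell by at least 1 in the authors' deposited table, 48 of 49 did not overlap, and of those that rose by at least 1, 10 of 14. The called reporters were selected on these same samples, so high shares follow in part from the selection and do not support the calls.

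A fit on the array values themselves called far fewer reporters than the authors' table. With the distinct arrays, 2 of CtrlF0 against 3 of CtrlF2, limma found 3 of 2007 reporters at an adjusted p under 0.05, 0.149 percent, and 121, or 6.03 percent, at an unadjusted p under 0.05. All 3 were lower in CtrlF2, and 1 of them was also called in the authors' deposited table. On centred values limma called 0 reporters, 0 percent, with 230 (11.5 percent) at an unadjusted p under 0.05. Of the 269 authors' calls in that centred fit, 129 had an unadjusted p under 0.05. The direction of the calls was not the same under settings that deal with dye. With all distinct arrays and a dye term limma called 15 higher and 7 lower, or 28 and 23 on centred values. With only the Cy5 array of CtrlF2 it called 42 higher and 25 lower, or 60 and 73 on centred values. The degrees of freedom recovered from t and p of the authors' deposited table had a median of 18.7, where 3 samples against 3 leave 4. The 2 numbers are not alike, since the deposited t is moderated and limma then adds degrees of freedom estimated across reporters. The sources used here do not give how much of the 18.7 came from that. The calls of the authors' table are thus reported as theirs, and the arrays at hand did not give the same number of calls.

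Names are attached to 40 reporters. The authors' deposited table tested 34 of these and called 2, or 5.88 percent, beside 12.5 percent over all tested. The 2 called were cyplasin s, which rose, and cyclin b3, which fell. The median change of the named reporters in the authors' deposited table was 0.01, as it was over all tested. The functions described next come from the names alone, which are short, and no named reporter could be matched to a gene model.

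Cyclin B3 belongs to the B-type cyclins, which activate the kinase that drives entry into cell division. On the centred scale, cyclin b3 (EBT_DamaRep_ASP5 B5) stood at 0.29 and 0.29 on the CtrlF0 arrays and at -0.06, 0.07 and -0.11 on CtrlF2 replicates 1 to 3. All CtrlF2 arrays lay below both CtrlF0 arrays, on either dye, as held for 20.8 percent of the 1998 reporters with values on every array. In the authors' deposited table cyclin b3 fell by 0.27 ± 0.09 (SE from the deposited t), a 1.21-fold change with adjusted p = 0.0483 in limma. The centred per-array fit gave -0.32 ± 0.14 (SE) with adjusted p = 0.470 in limma. The reporter named cyclin b (EBT_DamaRep_ASP1 C7) stood at 0.03 ± 0.25 in the authors' deposited table and was not called (adjusted p = 0.971). Its arrays overlapped, at 0.01 and -0.45 in CtrlF0 and -0.17, 0.17 and 0.69 in CtrlF2. Of the list of cell cycle names, 0 of 2 rose and 1 of 2 fell, beside 5.1 and 7.39 percent over all tested.

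The name cyplasin s occurs on 5 tested reporters. The called one, EBT_DamaRep_ASP8 A7, was at 0.53 ± 0.10 in the authors' deposited table, a 1.44-fold rise with adjusted p = 0.00259. Its centred values were -0.07 and -0.36 in CtrlF0 and -0.51, 0.17 and 0.24 in CtrlF2. Replicate 1 of CtrlF2 was thus the lowest of the 5 arrays, and the groups overlapped. The centred per-array fit gave 0.18 ± 0.29 (SE) with adjusted p = 0.812 in limma. The other reporters of that name were not called: EBT_DamaRep_ASP8 B4 stood at 0.38 ± 0.20, F6 at 0.21 ± 0.11, A4 at 0.07 ± 0.44 and A5 at 0.02 ± 0.44 in the authors' deposited table. At B4 the CtrlF2 arrays were at -0.01, -0.04 and 2.43, the last of them in Cy5, over CtrlF0 at -0.54 and -0.09. At F6 the groups did not overlap, with CtrlF0 at 0.13 and 0.07 and CtrlF2 at 0.24, 0.14 and 0.40. Over the 1998 reporters with values on every array, 14 percent had all CtrlF2 arrays above.

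Reporters named for chromatin did not pass, though none of the 3 overlapped between the groups. Histone deacetylase, an enzyme that removes acetyl groups from histones, was nearest to the threshold at 0.30 ± 0.10 in the authors' deposited table (adjusted p = 0.0632). Its reporter (EBT_DamaRep_ASP1 E2) was at -0.23 and -0.07 in CtrlF0 and 0.03, -0.03 and 0.18 in CtrlF2. Chromobox, a name of proteins that read methylated histones, stood at 0.19 ± 0.10 in the authors' deposited table (adjusted p = 0.260). It was at -0.19 and -0.04 in CtrlF0 and 0.03, 0.19 and 0.04 in CtrlF2. Nucleosome assembly, a name of histone chaperones, stood at -0.16 ± 0.09 in the authors' deposited table (adjusted p = 0.294), with CtrlF0 at 0.24 and 0.20 and CtrlF2 at -0.06, 0.15 and -0.07. The share of all reporters without overlap, 34.8 percent, is the background to these 3.

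**Figure D3:**
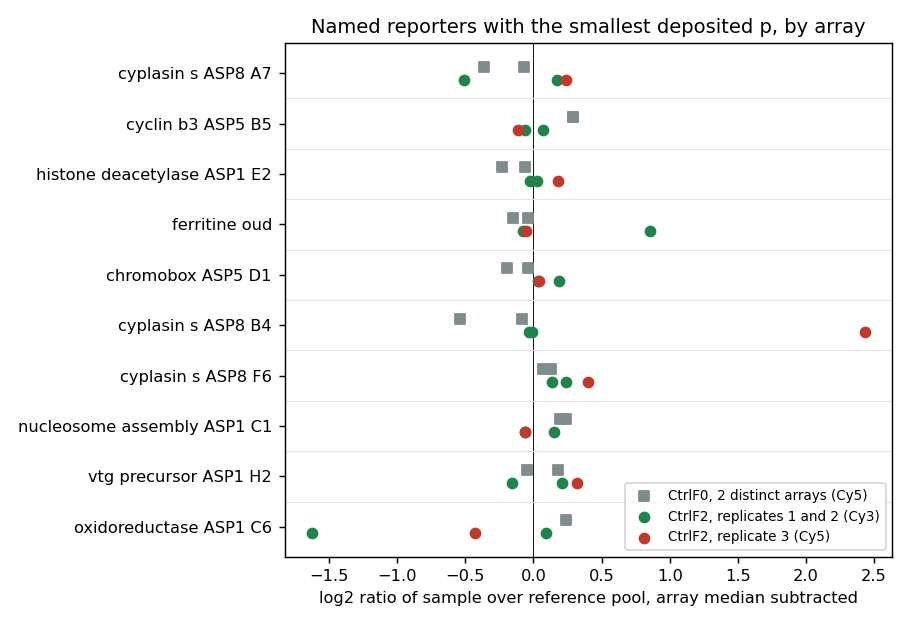
Centred log2 ratio of sample over reference pool (x axis) of the 10 named reporters with the smallest deposited p, listed from top to bottom. Squares are the distinct CtrlF0 arrays, and circles are CtrlF2 arrays coloured by dye. Cyclin b3 and the chromatin names are apart between the groups by small distances, while cyplasin s at A7, ferritine oud and vtg precursor overlap.

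None of the 3 reporters named for the yolk precursor was called. The reporter named vtg precursor (EBT_DamaRep_ASP1 H2), vtg being a usual abbreviation of vitellogenin, stood at 0.25 ± 0.15 in the authors' deposited table (adjusted p = 0.314). Its arrays were at 0.18 and -0.05 in CtrlF0 and -0.16, 0.21 and 0.32 in CtrlF2, which overlap. The reporters named vtg were at -0.00 ± 0.14 (EBT_DamaRep_ASP1 F6) and -0.01 ± 0.25 (EBT_DamaRep_ASP1 G1) in the authors' deposited table. At F6 the CtrlF0 arrays were at 0.16 and 0.01 and the CtrlF2 arrays at -0.06, 0.16 and 0.24. At G1 only 1 distinct CtrlF0 array had a value.

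Of 10 reporters named for ferritin and metallothionein, 7 were tested and 0 were called in the authors' deposited table, with 1 at an unadjusted p under 0.05. Over all tested, 12.5 percent were called and 573 of 2234 had an unadjusted p under 0.05. Ferritin stores iron, and metallothioneins, for which Mta and Mtb are used as short names in Daphnia, bind zinc, copper and cadmium. Ferritine oud was at 0.35 ± 0.16 in the authors' deposited table (adjusted p = 0.182). This came with CtrlF0 at -0.04 and -0.15 and CtrlF2 at -0.08, 0.86 and -0.05, so that replicate 2, in Cy3, stood alone. The reporter ferritine spread most of all named reporters, with CtrlF2 at -1.14, -2.43 and 5.78. Its change in the authors' deposited table was 0.05 ± 0.31. Ferritine bis was at -0.21 ± 0.23 in the authors' deposited table, with CtrlF0 at 0.44 and 0.25, above all CtrlF2 arrays at -0.00, -0.15 and 0.06. Such a position, all CtrlF2 arrays lower, was found in 20.8 percent of the 1998 reporters with values on every array. The authors' deposited table gave 0.11 ± 0.10 for Mtb oud and 0.03 ± 0.12 for Mta oud, next to -0.23 ± 0.18 for Mta and -0.20 ± 0.19 for Mta bis. The 3 untested ones were a further ferritine, Mtb and Mtb bis, none of which had a value on a CtrlF0 array.

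The remaining named reporters were not called. Among the 4 of the ribosome list, the changes in the authors' deposited table ran from -0.27 to 0.20. Rib 40S, named for the small ribosomal subunit, was at 0.20 ± 0.22 in the authors' deposited table. Its CtrlF0 arrays lay far apart, at -1.10 and 0.12, below CtrlF2 at 0.56, 0.97 and 0.51. Of the 1998 reporters with values on every array, 14 percent had all CtrlF2 arrays above. Rib l17, named for a protein of the large subunit, was at -0.23 ± 0.20 in the authors' deposited table, with CtrlF0 at -0.17 and 0.15 and CtrlF2 at -0.24, -0.65 and -0.15. Rib 16S (EBT_DamaRep_ASP1 B5) stood at -0.16 ± 0.23 in the authors' deposited table. Rib 16s (EBT_DamaRep_ASP8 F4) had no value on either distinct CtrlF0 array although it was tested. It is 1 of 14 such reporters, none of which was called, so the deposited table rests there on CtrlF0 values that are not among those used here.

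Metabolic and structural names were not called either. In the authors' deposited table, ad nucl translocase, the carrier that exchanges ATP and ADP across the inner mitochondrial membrane, had a change of 0.02 ± 0.11. The glycolytic GAPDH2 (-0.06 ± 0.11), tubuline, the subunit of microtubules (0.02 ± 0.11), az aminotransferase (-0.08 ± 0.16) and kinase (-0.00 ± 0.17) were likewise near 0 in the authors' deposited table. GAPDH2 was at 0.04 and -0.04 in CtrlF0 and 0.02, -0.10 and -0.61 in CtrlF2, where the Cy5 array stood apart. Retinol dehydr oud, named for an enzyme that interconverts retinol and retinal, had the narrowest range of these, from 0.08 to 0.25 over the 5 arrays, and a change of 0.01 ± 0.11 in the authors' deposited table. Peroxinectin, a cell adhesion protein of arthropod immunity, stood at 0.01 ± 0.23 and proteasomesubunit, a part of the protein-degrading complex, at -0.15 ± 0.47 in the authors' deposited table. Oxidoreductase (-0.47 ± 0.29) and acyl coa reductase (-0.22 ± 0.37) had wide errors in the authors' deposited table, with CtrlF2 from -1.62 to 0.09 and from -2.16 to -0.04. The named reporters without a test were golgi snare, retinol dehydr and retinol dehydr bis, besides the 3 for metal binding. By list, the authors' deposited table called 0 of 3 chromatin, 0 of 3 yolk, 0 of 4 ribosome, 0 of 2 energy metabolism, 0 of 2 stress and protein turnover, 0 of 1 retinol and vision and 0 of 1 cytoskeleton reporters. The defence list, made of cyplasin s and peroxinectin, had 1 of 6 called. Over all tested, 12.5 percent were called. Reporters named unknown were 42 among those tested, of which 3 were called in the authors' deposited table, all higher.

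Some named reporters can be set beside the control generation in between, CtrlF1, which was sampled at 22 days. The comparisons CtrlF2 with CtrlF0 and CtrlF1 with CtrlF0 share the CtrlF0 samples, so they are not independent. Cyplasin s at A7 was 0.60 ± 0.15 higher in CtrlF1 than in CtrlF0 in the authors' deposited table (adjusted p = 0.00604), beside 0.53 ± 0.10 for CtrlF2. Cyclin b3 fell by 0.29 ± 0.07 from CtrlF0 to CtrlF1 in the authors' deposited table (adjusted p = 0.00371), beside -0.27 ± 0.09 for CtrlF2. CtrlF1 against CtrlF2 was 0.02 ± 0.14 for cyplasin s at A7 and -0.06 ± 0.08 for cyclin b3 in the authors' deposited table. Other named reporters passed in CtrlF1 over CtrlF0 and not in CtrlF2 over CtrlF0, which alone does not show that the generations differ. Cyplasin s at F6 was lower in CtrlF1 than in CtrlF0, by -0.57 ± 0.08 in the authors' deposited table, and stood at 0.21 ± 0.11 in CtrlF2 over CtrlF0. Its CtrlF1 arrays, at -0.55, -0.47 and -0.47, lay below every array of the other control generations, and its CtrlF1 level was -0.69 ± 0.09 against CtrlF2 in the authors' deposited table (adjusted p = 7.56e-06). Ferritine oud in CtrlF1 was at 0.22 ± 0.04 over CtrlF0 in the authors' deposited table (adjusted p = 0.00057), beside 0.35 ± 0.16 for CtrlF2. Nucleosome assembly was at -0.28 ± 0.09 (adjusted p = 0.0245), beside -0.16 ± 0.09 for CtrlF2 in the authors' deposited table. The vtg reporter EBT_DamaRep_ASP1 F6 was at -0.45 ± 0.13 (adjusted p = 0.0107) and kinase at -0.45 ± 0.15 (adjusted p = 0.0394) in the authors' deposited table, beside -0.00 ± 0.14 and -0.00 ± 0.17 for CtrlF2.

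The largest changes fell on reporters without names, but only 34 of the 2234 tested reporters carry a name. Over all tested, 2.86 percent were called with a log2 change of at least 1, so nothing is read from this. The reporter EBT_DamaEne_ASP2 G11 was the only one called both in the authors' deposited table and by the per-array fit. It was at 0.38 and -0.53 in CtrlF0 and at -7.06, -4.02 and -5.66 in CtrlF2, where every array was lower by several log2 units. The reporter was dim, with an average log2 expression of 6.00 in the authors' deposited table, inside the dimmest class, which ends at 6.52. The authors' deposited table lists it at -0.96 ± 0.29 (adjusted p = 0.0372), while the per-array fit gave -5.60 (adjusted p = 0.0264 in limma), and 0.196 after centring. These sizes differ widely. Log ratios past 6 were found on arrays of CtrlF2 and of Zn(+)F2, a group kept in zinc, and on no array of the other groups.

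The next 3 reporters were chosen after their values were seen. EBT_DamaMol_ASP4 H11 had the largest fall in the authors' deposited table, -2.72 ± 0.49 (adjusted p = 0.000906). Its arrays were at -0.33 and -0.34 in CtrlF0 and -4.88, -2.09 and -2.50 in CtrlF2, with CtrlF1 above both at 0.58, 1.35 and 1.90. EBT_DamaMol_ASP7 H3 had the largest rise in the authors' deposited table, 2.46 ± 0.38 (adjusted p = 0.000289). It was at -1.64 and -0.18 in CtrlF0 and -0.20, 0.28 and 0.94 in CtrlF2, so the lowest CtrlF2 array lay within the CtrlF0 range. For EBT_DamaEne_ASP8 D11 the authors' deposited table lists a rise of 1.84 ± 0.21 (adjusted p = 2.62e-05). It was the tightest of these: CtrlF0 was at -1.40 and -1.97, CtrlF1 at -1.99, -1.32 and -1.78, and CtrlF2 at 0.03, -0.07 and -0.08. All CtrlF2 arrays thus lay more than 1 above all arrays of both earlier control generations, on either dye.

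Most of the strong falls were in reporters that stood higher again in CtrlF1. Of the 49 reporters that fell by at least 1 in the authors' deposited table, 34 stood at least 1 higher in CtrlF1 than in CtrlF0 on the centred arrays. This group was defined after the values were seen and is described without a test. It holds 24 reporters with the clone token Mol, 9 with Ene and 1 with Rep, spread over 11 plates. The 49 from which it was drawn hold 28 with Mol, 12 with Ene and 9 with Rep. Among all tested reporters, 755 carry Mol, 752 Ene and 719 Rep. The meaning of the tokens was not stated. The group of 34 was bright, with a median average log2 expression of 10.3 in the authors' deposited table and 26 of 34 reporters in the brightest class. That class held 31 of the 49 as well, so brightness was not particular to the 34. The changes in the authors' deposited table reached -2.72 and had a median of -1.70.

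The levels of these 34 in the 3 control generations follow in their order from how they were chosen and are given as a description. Their median was -0.46 and -0.36 on the CtrlF0 arrays, 0.58, 1.18 and 1.74 on the CtrlF1 arrays, and -3.46, -1.75 and -2.001 on the CtrlF2 arrays. CtrlF2 replicate 3, at -2.001, carried the same dye as the CtrlF0 samples. The quartiles over the 34 reporters were close on CtrlF1 replicate 2, at 1.03 and 1.28, and on CtrlF2 replicate 2, at -1.94 and -1.35. They were wider on CtrlF2 replicate 1, at -4.05 and -2.44, and on CtrlF2 replicate 3, at -2.48 and -1.48. On Zn(-)F1 replicate 3, not used in the choice, they were -3.91 and -2.01. Arrays of CtrlF1 differed from each other by more than 1, so the spread between samples of a group was large for these reporters. The sources used here do not say whether several of them carry pieces of the same transcript, so they should not be counted as independent. A rule on the centred means was also applied to all reporters, asking for CtrlF1 at least 1 above CtrlF0 and CtrlF2 at least 1 below CtrlF0. It gave 44 reporters, of which 35 were called in CtrlF2 against CtrlF0, beside 12.5 percent over all tested. That rule and the call both use the CtrlF0 and CtrlF2 samples, so nothing is read from that count.

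In the groups with zinc in their history, the same 34 reporters ran from high to very low. On the ZnF0 arrays, sampled at 23 days in zinc, their medians were 1.45, 0.80 and 1.31. On the Zn(-)F1 arrays, from daughters returned to control medium, they were -2.94, -3.15 and -3.33. The Zn(+)F1 arrays, from daughters kept in zinc, gave -3.44, 0.14 and -1.65, the middle value from an array with only 12 of the 34. In Zn(+)F2, kept in zinc for all generations, they were -0.53, -0.38 and -3.53, the last in Cy3. Zn(+/-)F2, returned to control medium in the last generation, gave -0.98, -0.22 and -0.60, and Zn(-/-)F2, from the Zn(-)F1 lineage, gave 0.20, -1.17 and -1.84. All arrays of CtrlF0, CtrlF1 and ZnF0 carried Cy5 and all of Zn(+)F1 and Zn(-)F1 carried Cy3, so dye and group cannot be told apart there. Of the groups that hold both dyes, CtrlF2 and Zn(+)F2 were lowest on a Cy3 array, and Zn(+/-)F2 and Zn(-/-)F2 on a Cy5 array.

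The 15 other reporters that fell by at least 1 are those without the higher level in CtrlF1, so their levels in the control generations are set by the split and described only. Their medians were -0.05 and -0.04 on the CtrlF0 arrays, 0.03, -0.01 and -0.00 on the CtrlF1 arrays, and -2.06, -1.56 and -1.52 on the CtrlF2 arrays. On the Zn(-)F1 arrays, which the split did not use, their medians ran from -1.68 to -1.28, and on the ZnF0 arrays from -0.01 to 0.07. They ran from -1.17 to 0.36 in Zn(+)F1, the top value from an array with only 4 of the 15, and from -0.78 to -0.30 in Zn(+)F2. In Zn(+/-)F2 and Zn(-/-)F2 they lay near 0 or above, from -0.19 to 0.26 and from 0.04 to 0.32.

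**Figure D4:**
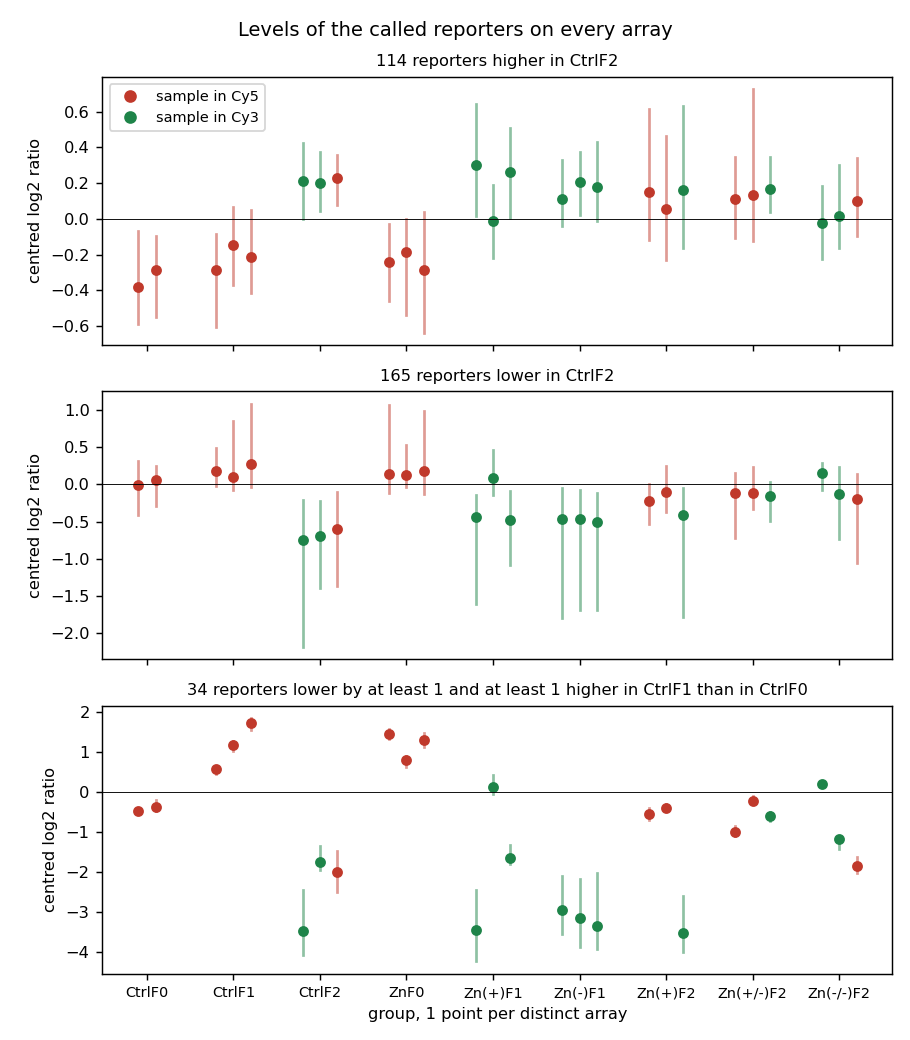
Centred log2 ratio of the reporters called higher (top), called lower (middle) and of the 34 strong fallers that stood at least 1 higher in CtrlF1 (bottom) on every distinct array of the 9 groups. Points are medians over reporters and lines span the lower to the upper quartile, coloured by the dye of the sample. The reporters called higher have medians below 0 on all CtrlF0, CtrlF1 and ZnF0 arrays. The 34 reporters span a narrow range on those arrays and a wider one on several others, such as CtrlF2 replicate 1 and the Zn(-)F1 arrays.

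By the array medians of all called reporters, CtrlF1 stood nearer to CtrlF0 than to CtrlF2, though single reporters differed. The 114 reporters called higher had array medians of -0.38 and -0.28 in CtrlF0, from -0.29 to -0.14 in CtrlF1 and from 0.20 to 0.23 in CtrlF2. In the 5 later groups with zinc in their history, their array medians lay between -0.03 and 0.30. The 165 reporters called lower had array medians of -0.01 and 0.05 in CtrlF0, from 0.10 to 0.27 in CtrlF1 and from -0.74 to -0.59 in CtrlF2. In the same 5 later groups their array medians lay between -0.51 and 0.15, with 13 of 15 below 0. For 61 of the 114 higher reporters the CtrlF1 mean lay between those of CtrlF0 and CtrlF2, for 40 on the far side of CtrlF0 and for 13 beyond CtrlF2. Among the lower reporters, 164 had levels in CtrlF1, of which 72 lay between, 81 on the far side of CtrlF0 and 11 beyond CtrlF2. Of those that fell by at least 1, 48 had such levels, with 7 between and 41 on the far side of CtrlF0. The reporters were selected on CtrlF0 and CtrlF2, so only the position of the other groups is a further observation. It was not tested, and the age of CtrlF1, 22 days, differed as well. All CtrlF0 and CtrlF1 arrays carried Cy5, while CtrlF2 replicates 1 and 2 carried Cy3, so dye differed too.

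Calls were spread over all clone plates but not evenly by direction. Reporters with the token Mol were called in 110 of 755 cases (14.6 percent), those with Ene in 91 of 752 (12.1 percent) and those with Rep in 78 of 719 (10.8 percent) in the authors' deposited table. The balance of direction differed: 75 of the Mol calls and 59 of the Ene calls were lower, while 47 of the 78 Rep calls were higher. All tested reporters, called or not, also differed by token, with median log2 changes of -0.02 for Mol, -0.04 for Ene and 0.09 for Rep. By plate the share called ran from 6.33 to 21.3 percent. Mol plates 2 and 5 each had 18 of 94 reporters lower, and Mol plate 8 had 13 of 95 higher and 0 lower. Over all their tested reporters, the median log2 change was -0.13 on Mol plate 2, -0.13 on Mol plate 5 and 0.12 on Mol plate 8. On these plates the direction with more calls had the sign of the plate median, which includes the called reporters. Not all plates followed: on Rep plate 7, with a median of 0.10, 1 reporter was called higher and 4 lower. Mol plate 6, with a median of 0.14, had 4 higher and 4 lower. By well row the share ran only from 10.6 to 15.2 percent. Whether plates differ in the transcripts they hold or in their printing was not tested.

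**Figure D5:**
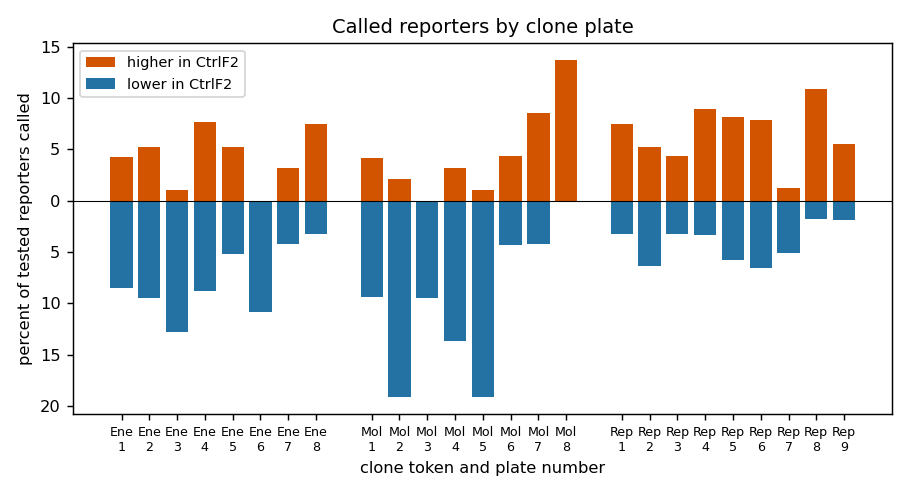
Percent of the tested reporters on each clone plate called by the authors' deposited table, higher in CtrlF2 upwards and lower downwards, from a common 0. Plates are ordered by the token Ene, Mol or Rep and their number. Mol plates 2 and 5 extend furthest downwards and Mol plate 8 furthest upwards.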

How the data were processed

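Per the submitters' processing notes, the comparisons were made with limma. The sources used here do not give its version, the background correction or the normalization. Per the deposited readme, each of the authors' tables gives a log2 change, an average log2 expression, a moderated t score, a log-odds score, a p-value and an adjusted p-value. The deposited value table holds 1 column of log2 ratios per array. Its scale and direction, not stated, were settled by setting differences of group means against the authors' deposited log2 changes (Pearson's r = 0.96 for ZnF0 over CtrlF0, across genes). Which normalization these ratios had stays unknown.

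SEs of deposited changes are the log2 change divided by t. A reporter was called at an adjusted p (Benjamini-Hochberg over the table) under 0.05. Of 27 array columns, 26 were distinct. The per-array fit used limma 3.58.1 in R 4.3.3 (lmFit, eBayes) on reporters with values on at least 2 arrays per group. It was planned as 3 against 3 arrays and run as 2 against 3, since CtrlF0 replicate 3 was a copy of replicate 1. Its code was tested on simulated data. The number of arrays limits the precision.

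Named in the text are all reporters with a name that were tested, in full for those called and the 10 with the smallest p, and at most 2 unnamed reporters that rose and 2 that fell. The members, the 15 keyword lists and the tests were chosen with earlier results of these data known. The lists covered yolk, iron and zinc binding, chromatin, cell cycle, ribosome, energy metabolism, stress and protein turnover, retinol and vision, cytoskeleton and defence. The other 5, for translation, cuticle and moulting, digestion, oxygen transport, and spots without Daphnia cDNA, matched no reporter. Alternatives were the threshold, the scaling, a filter on dim reporters, the arrays and dyes included, a dye term, a replicate block and leaving out each replicate. Same-numbered arrays had correlations of deviations of 0.04 and 0.01, so the numbers were not taken as pairs. Reporters matched no gene or genome position in the reference table.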

Additional observations from a re-analysis of the deposited data

How the results depend on the processing

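Of the 279 calls in the authors' deposited table, 128 passed at an adjusted p under 0.01, and the per-array limma fit called 3 reporters, or 0 after centring (setting the centred fit against the authors' table, and centring combined with other settings, were added after seeing the data). The count of the per-array fit depended on its settings. It was 60 without the dimmest 25 percent, 17 with quantile scaling, 13 with all distinct arrays in 9 groups and 22 with a dye term added (15 higher, 7 lower). It was 67 (42 higher, 25 lower) with only the Cy5 array of CtrlF2 (which is assumed to vary like the other group), 0 with only the Cy3 arrays, and 0 with a replicate block. With the copied CtrlF0 column kept, a setting added later, it was 6. Leaving out each array gave 0 to 45, the highest without CtrlF2 replicate 2 (32 without replicate 1, 0 without replicate 3, 10 and 12 without CtrlF0 replicates 1 and 2). On centred values the count was 45 with all distinct arrays, 51 with a dye term (28 higher, 23 lower), 133 with only the Cy5 array, 35 with the copied column, and 0 for only the Cy3 arrays, the replicate block, log ratios held within 4, and each array left out. Among the 34 named reporters, 94 of 419 alternative values had the opposite sign to the deposited one. Of the 2 that were called, cyclin b3 kept its sign and was never past the threshold in a per-array fit. Cyplasin s at A7 turned to -0.27 with the replicate block and without CtrlF2 replicate 3, and to -0.04 without CtrlF0 replicate 2, in a range of -0.27 to 0.45 over the arrays left out. The cause was not tested. With only the Cy5 array, cyplasin s at B4 and ferritine passed. Centring moved the median change from -0.13 to -0.04. The 2 distinct CtrlF0 arrays limit all these counts.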
